A study of Arabidopsis thaliana with 18 samples.

Results

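Among 37686 genes measured in Arabidopsis leaves, 41 fell at least 2-fold after 1 day of culture in leaves of 9-day seedlings and rose at least 2-fold in leaves of 15-day seedlings. They were chosen by those values: a mean of 3 libraries of at least 5 TPM (a gene's share of all transcripts in the library, corrected for gene length) in 9-day leaves before culture, at most 0.5 of that after culture, and in 15-day leaves at least 2 TPM after culture and at least 2 times the level before it. Of 13552 genes at 5 TPM or more in uncultured 9-day leaves, 407 (3.00%) halved at 9 days and 2056 (15.2%) doubled at 15 days. The 41 genes are 10.07% of the first set and 1.99% of the second. Most halved genes did otherwise, since 233 of the 407 also halved at 15 days. The limit of 300 members was not reached.

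The samples were first-pair rosette leaves of Arabidopsis of the ecotype Columbia (Col-0) with no transgene or agent named in the labels. Seedlings grew at 22 °C in constant light on diluted MS medium with sucrose and were 9, 12 or 15 days old. At each age, leaves were taken before culture (t0) or 1 day after culture (1 DAC) of the detached leaf on sucrose-free B5 medium, also in constant light. Polyadenylated RNA of 3 libraries per group was sequenced, 18 in all, with 29664089 to 51126114 expected counts each. The series text speaks of biological duplicates while the labels list 3 replicates, and replicate 3 of every group is labelled with other field names than replicates 1 and 2. Labels do not say that the 3 replicates came from separate plants, so the p-values speak for the spread of these libraries alone, which may be technical. Since the rule used the 9- and 15-day libraries, their values are a description with no test, and only the 12-day contrast is tested.

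In a growing leaf, cells first divide throughout the blade, then stop from the tip downwards while expansion and photosynthesis take over. A dividing cell copies its DNA in S phase, which needs licensed replication origins, new histones to wrap the copies and an enzyme that restores DNA methylation on the new strand. Young leaf cells also build chloroplasts, whose proteins are folded by a chaperonin, a barrel of Cpn60 subunits closed by a co-chaperonin lid, and they lay down a waxy cuticle. Detached leaves of this plant can form roots at the wounded base. In whole leaves, fewer cells of a type and less RNA per cell cannot be told apart.

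The 41 genes also share a course with age in uncultured leaves, of which the rule used the 9- and 15-day levels but not the 12-day level. Among the 36 with enough counts to be tested, the mean level before culture fell from 9 to 12 and from 12 to 15 days in 36, where it did in 29.1% of the 13522 tested genes at 5 TPM or more. The rule favours this course, so nothing is read from the count. The 9-day mean was a median of 8.81-fold above the 15-day mean (range 2.19 to 179). After culture the ages lay closer together, which the directions in the rule favour: in 23 of these 36 the cultured means at 9 and 15 days lay within 2-fold, with a median ratio of 0.830 (range 0.0822 to 6.06). In cultured 15-day leaves the level reached a median of 56.8% of that in uncultured 9-day leaves, and it stayed below it in 33 of 36. The fall at 9 days was shallow, with a median of 2.24-fold, 28 of 36 under 2.5-fold and 3 at 3-fold or more. At 15 days the median rise was 3.92-fold (range 2.02 to 189).

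**Figure D1:**
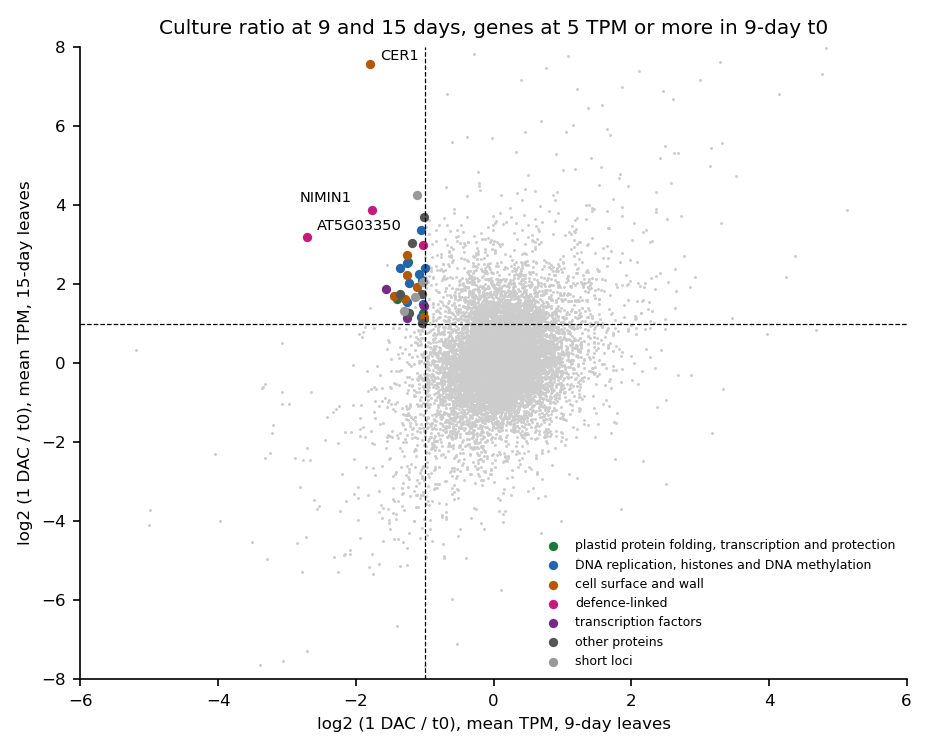
Each point is a gene with at least 5 TPM in uncultured 9-day leaves (13535 genes with no group at 0, of which 12 lie beyond the axes), placed by the log2 ratio of mean TPM after over before culture at 9 days (x axis) and 15 days (y axis). Coloured points are the 37 members that can be drawn, by role; dashed lines mark the 2-fold limits of the rule, and most members sit close to the 9-day limit, with CER1, AT5G03350 and NIMIN1 standing away from it.

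In 35 members the 3 cultured libraries all lay below the 3 uncultured ones at 9 days, where 11.1% of the 13552 genes did so, and in 37 they all lay above at 15 days, where 28.7% did. Both held in 34. The rule used these contrasts, so nothing is read from the counts. Choosing the members on 2 replicates gave 75, 59 or 48 genes with replicate 1, 2 or 3 left out, and 62, 43 and 33 of these showed both directions in the library set left out, 11, 21 and 17 of them at 2-fold. The share of all genes doing so in those libraries is not given, so nothing is read from the direction counts. Of the genes chosen on 2 replicates 35, 29 and 28 were among the 41, so the choice is sensitive to single libraries. Just inside its limits were VIM1, with a 9-day ratio of 0.500, FSD3, with 0.496, and AT1G56050, with a 15-day ratio of 2.02 (FSD3 2.17). Just outside were EMB3120 (0.504) and AT5G08275 (0.506) at 9 days, and PME5 (1.97) and PGL5 (1.87) at 15 days. By level, AT1G43605 (5.11 TPM) and IRX12 (5.28 TPM) were in and AT5G45630 (4.99 TPM) and SDG4 (4.77 TPM) out at 9 days, while after culture at 15 days AT1G67750 (2.06 TPM) and EXPA15 (2.20 TPM) were in and CYCA2;3 (1.56 TPM) and AT3G06880 (1.37 TPM) out.

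Uncultured 12- and 15-day libraries were the least alike within their groups (lowest Pearson r between replicates 0.935 and 0.906, on log2 counts scaled by depth, across genes). Summed TPM of 13 early stress and touch genes, a list added after the data were seen, was 161, 3631 and 2086 in replicates 1, 2 and 3 of uncultured 12-day leaves and 1362, 8605 and 296 in those of 15-day leaves. It was 235 to 1909 in the other groups, so replicate 2 was highest at both ages, and at 12 days replicates 1 and 3 lay outside that range too. Without 15-day replicate 2 in the means the rule gave 49 genes, 39 of them among the 41, and AT1G56050 and FSD3 dropped out. Summed markers of shoot meristem and boundary reached 1.53 TPM at most over 11 genes, those of seed storage 0.61 TPM over 8, and 9 root markers 8.21 to 20.6 TPM, while 7 leaf mesophyll genes summed to 20834 to 71887 TPM. The labelled tissue thus had its defining markers in every library. Stomatal lineage markers, 11 genes, summed to 203 to 271 TPM in uncultured 9-day leaves, 101 to 156 after culture, 43.7 to 71.1 in uncultured 15-day leaves and 33.8 to 43.3 after culture. At 15 days this sum was thus lower after culture, unlike the 41 genes. Its part in the fall at 9 days was not tested.

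A group of 10 members act in DNA replication, histone supply and DNA methylation. Summed over them, the level was 218, 239 and 269 TPM in the 3 libraries of uncultured 9-day leaves and 117, 94.5 and 102 after culture. In 15-day leaves it was 50.3, 22.3 and 14.4 TPM before culture and 139.7, 124 and 109 after. The cultured libraries of both ages therefore overlapped, between 94.5 and 139.7 TPM, while the uncultured sums did not. The individual falls were 2.00- to 2.58-fold at 9 days and the rises 2.25- to 10.3-fold at 15 days.

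Histone genes HTA11 and AT3G27360 had the highest levels of the group. HTA11 (AT3G54560, chromosome 3, 20196140 to 20197726, plus strand) encodes an H2A.Z variant histone, which marks promoters and inactive gene bodies. It had 75.4, 94.6 and 75.8 TPM before and 33.2, 29.1 and 33.2 TPM after culture at 9 days, and 11.9, 6.24 and 3.09 TPM before and 40.01, 39.3 and 32.9 TPM after at 15 days. Its cultured leaves thus had close levels at both ages, 31.8 ± 2.35 and 37.4 ± 3.95 TPM (mean ± SD, n = 3). AT3G27360 (chromosome 3, 10129105 to 10129937, minus strand), annotated as a histone superfamily protein and known as a gene for the histone H3 form that is deposited at replication, had 58.2, 53.02 and 75.5 TPM and then 30.7, 24.7 and 24.5 TPM at 9 days. Its level at 15 days was 10.6, 6.38 and 3.37 TPM before and 33.2, 27.5 and 21.9 TPM after culture. The nearest copy, AT5G10400, is 84.1% identical over 72.6% of the transcript, so part of the reads may be shared. AT5G10400 had mean levels of 94.5 and 53.5 TPM at 9 days and 10.9 and 72.2 TPM at 15 days. HTR12 (AT1G01370, chromosome 1, 143489 to 146479, plus strand), also called CENH3, encodes the H3 variant of centromeres and was lower, 7.54 ± 0.628 TPM falling to 3.55 ± 0.0964 at 9 days and 0.913 ± 0.794 rising to 4.33 ± 0.38 at 15 days.

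DNA methylation after replication depends on MET1 (AT5G49160, chromosome 5, 19932114 to 19938470, plus strand), the methyltransferase that copies CG methylation to the new strand, and on VIM1 (AT1G57820, chromosome 1, 21413981 to 21418115, minus strand), which binds hemimethylated DNA. MET1 had 10.9, 10.2 and 19.9 TPM before and 5.74, 4.52 and 6.81 TPM after culture at 9 days, replicate 3 standing highest in both groups. At 15 days it went from 3.27, 1.17 and 2.15 to 6.95, 5.61 and 6.53 TPM. VIM1 had 9.8, 11.5 and 14.7 TPM and then 6.22, 4.51 and 7.28 TPM at 9 days, and 2.63, 0.93 and 0.38 TPM and then 7.77, 6.01 and 7.14 TPM at 15 days. For both genes the cultured libraries of the 2 ages overlapped.

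Of the replication machinery itself, PRL (AT4G02060, chromosome 4, 900636 to 905591, plus strand), known as PROLIFERA, encodes the MCM7 subunit of the helicase that licenses origins. Its level was 8.42, 11.1 and 14.1 TPM before and 6.71, 4.74 and 4.93 TPM after culture at 9 days. In 15-day leaves it rose from 4.24, 0.76 and 0.99 to 10.07, 8.67 and 7.09 TPM, with replicate 1 the highest both before and after. RPA70D (AT5G61000, chromosome 5, 24549479 to 24552855, minus strand) encodes a large subunit of replication protein A, which coats single-stranded DNA. It had 4.88, 7.1 and 12.4 TPM and then 4.3, 3.47 and 3.94 TPM at 9 days, a narrow gap between the lowest uncultured and the highest cultured library. Its level at 15 days went from 1.81, 0.12 and 0.41 to 9.33, 6.98 and 7.85 TPM, 10.3-fold, the largest rise of this group, and reached 98.9% of the uncultured 9-day mean. RPA70B, a copy 85.2% identical over 63.7% of the transcript, had means of 4.45 and 2.26 TPM at 9 days and 0.47 and 4.11 TPM at 15 days, and the split of reads between them is uncertain. BARD1 (AT1G04020, chromosome 1, 1036493 to 1040262, plus strand), a RING protein of DNA repair, followed a like course, 7.76 ± 1.67 to 3.23 ± 0.919 TPM at 9 days and 1.08 ± 1.37 to 6.27 ± 1.09 TPM at 15 days.

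Cell cycle entry was represented by the cyclins CYCD3;1 (AT4G34160, chromosome 4, 16357421 to 16359565, plus strand), which promotes the step into S phase and keeps leaf cells dividing, and CYCA3;2 (AT1G47210, chromosome 1, 17300691 to 17302914, plus strand), an A-type cyclin annotated in the reference as a cyclin-dependent kinase. CYCD3;1 had 16.7, 12.99 and 16.2 TPM before and 7.4, 7.18 and 7.45 TPM after culture at 9 days. At 15 days it went from 1.23, 2.31 and 1.19 to 2.83, 3.48 and 4.33 TPM and reached 23.2% of the uncultured 9-day mean, the least of the group. CYCA3;2 had 21.4, 22.1 and 22.6 TPM and then 14.7, 10.4 and 7.43 TPM at 9 days, and 10.2, 3.68 and 2.05 TPM and then 17.4, 16.3 and 11.3 TPM at 15 days. Its uncultured 15-day replicate 1 was well above the others and close to the lowest cultured library.

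Promoters of the group are shown because replication genes are often bound by E2F factors, which act at entry into S phase. The 250 bases before the annotated start were read from the RefSeq TAIR10.1 genome for the 34 protein-coding members and 27443 genes in all, and searched on both strands. Any of 4 E2F-type motifs (TTTCCCGC, TTTGGCGC, TTTCGCGC, TTTGCCGC) was in 1 member promoter (2.94%), that of RPA70D, and in 1.41% of all. The core AACGG, part of the element of M-phase genes, was in 12 member promoters (35.3%) and in 20.6% of all, and among the 10 replication members in 5. The longer CNAACGG, which overlaps AACGG, was in 6 (17.65%) and 4.504%, GGCCCA in 5 (14.7%) and 13.65%, and CACGTG in 3 (8.82%) and 6.49%. These are letter matches, described and not tested. Windows of RPA70D and MET1, in which no other gene is annotated and which hold an E2F-type or AACGG match, are printed. Each runs 5′ to 3′ along the gene's strand, ending at the base before its start. Those of HTA11, CYCA3;2 and VIM1 also have no other gene annotated but hold 0 such matches and are not printed. Capitals mark the E2F-type match at base -26 of RPA70D (the reverse complement of TTTGGCGC) and the AACGG match at base -10 of MET1 (as its reverse complement).
RPA70D (chr5:24552856-24553105, minus strand): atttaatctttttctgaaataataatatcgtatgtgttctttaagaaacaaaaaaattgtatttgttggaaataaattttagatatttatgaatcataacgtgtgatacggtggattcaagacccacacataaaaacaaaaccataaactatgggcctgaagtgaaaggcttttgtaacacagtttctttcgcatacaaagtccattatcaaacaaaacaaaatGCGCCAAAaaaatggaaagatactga
MET1 (chr5:19931864-19932113, plus strand): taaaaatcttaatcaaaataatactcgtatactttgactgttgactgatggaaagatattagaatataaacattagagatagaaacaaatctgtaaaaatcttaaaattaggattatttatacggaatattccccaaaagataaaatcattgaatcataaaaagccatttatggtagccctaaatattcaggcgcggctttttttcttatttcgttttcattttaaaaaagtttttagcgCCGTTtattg

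In the licensing, DNA synthesis and histone lists most other genes lay in the same directions without meeting both limits. These counts use the libraries of the rule and its 5 TPM level in uncultured 9-day leaves, which can favour a fall at 9 days. They are a description and no separate support. With the members left out, 9 of 12 origin and licensing genes at 5 TPM or more in uncultured 9-day leaves were lower after culture at 9 days and higher at 15 days. So were 12 of 15 DNA synthesis genes and 23 of 37 core and linker histone genes, beside 2369 of all 13552 genes (17.5%). On scaled counts in place of TPM the numbers were 10, 13, 24 and 2692 (of 13522 that could be tested). Over the whole lists, 1, 1 and 4 genes halved at 9 days, while 9, 9 and 19 doubled at 15 days. Both limits were met by PRL in the first list, RPA70D in the second and HTA11, AT3G27360 and HTR12 in the third. MCM2, a helicase subunit, went from 7.59 to 4.25 TPM at 9 days and from 1.29 to 7.11 at 15 days, as group means. PCNA1, the sliding clamp of DNA polymerase, went from 15.4 to 10.7 TPM and from 1.49 to 15.3. TSO2, a subunit of the enzyme that makes deoxyribonucleotides, went from 67.2 to 49.6 TPM and from 10.4 to 85.1. None of these 3 genes halved at 9 days.

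Other steps of the cell cycle were counted in the same way. Members left out, both directions were seen in 5 of 9 A- and B-type cyclins and mitotic kinases (4 on scaled counts), 3 of 11 genes of S-phase entry (3), 2 of 8 chromatin assembly, methylation and condensation genes (4), 9 of 24 spindle and kinetochore genes (10) and 3 of 9 cytokinesis genes (2). Ribosomal protein genes showed it in 200 of 302 (217 on scaled counts), with no member, since 1 of them halved at 9 days and 203 doubled at 15 days. KN, the syntaxin of the forming cell plate, went from 19.6 to 12.3 TPM at 9 days and from 1 to 4.44 at 15 days. AUR1, a mitotic kinase, went from 6.72 to 4.41 TPM at 9 days and had 1.15 and 1.39 TPM at 15 days. ANT, an AP2 factor of organ growth, had 7.86 and 4.303 TPM at 9 days and 1.14 and 1.42 TPM at 15 days. Of 23 cell cycle and leaf growth genes named for comparison 3 are members (HTR12, CYCD3;1 and MET1), and of the other 20 genes 17 were lower at 9 and higher at 15 days. These genes were not held to 5 TPM, the libraries are those of the rule, and no like share of all genes is given. Nothing is therefore read from this count. CDT1A, a licensing factor, had a ratio of 0.588 at 9 and 6.41 at 15 days, and CYCB1;2, a mitotic cyclin, 0.636 and 7.16. AN3, a coactivator of leaf cell division, had 0.703 and 0.587 TPM at 9 days and 1.51 and 0.127 TPM at 15 days.

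**Figure D2:**
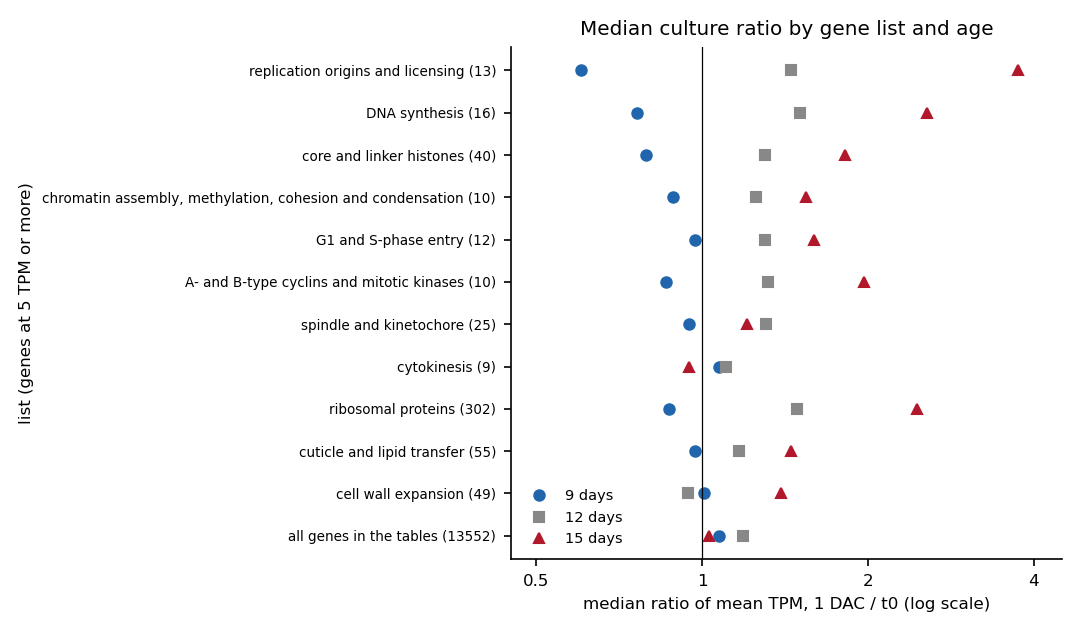
Median ratio of mean TPM after over before culture (x axis, log scale) for gene lists (y axis, number of genes at 5 TPM or more in uncultured 9-day leaves in brackets), with circles for 9, squares for 12 and triangles for 15 days. Licensing and DNA synthesis lists lie below 1 at 9 days (0.603 and 0.763) and above 2 at 15 days (3.74 and 2.57). At 12 days they lie between (1.45 and 1.505), where all genes lie at 1.19. All genes lie near 1 at 9 and 15 days (1.08 and 1.03).

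Plastid proteins form the most abundant group, with 4 members. CPN20 (AT5G20720, chromosome 5, 7014662 to 7016698, plus strand), the co-chaperonin lid of the plastid folding machine, had the highest level of all 41 genes. It had 1817, 2051 and 2142 TPM before and 868, 883 and 1192 TPM after culture at 9 days. In 15-day leaves it went from 676, 302 and 487 to 1146, 1180.0 and 1174 TPM, the 3 cultured libraries differing little. Cpn60beta2 (AT3G13470, chromosome 3, 4389215 to 4393015, plus strand), a subunit of the barrel, had 117, 174 and 160.2 TPM and then 47.8, 45.6 and 76.7 TPM at 9 days, and 31.2, 7.11 and 14.8 TPM and then 56.9, 55.1 and 52.8 TPM at 15 days. Its nearest copy, CPN60B, is 87.3% identical over 77.0% of the transcript, so part of the reads may be shared. CPN60B had mean levels of 1100.0 and 401 TPM at 9 days and 152 and 278 TPM at 15 days, which falls short of the 2-fold limit of the rule at 15 days. CPN20 overlaps NPH4 by 254 bases and Cpn60beta2 overlaps AT3G13480 by 553, both on opposite strands, and strand use is not given, so reads from the shared bases cannot be assigned. The same holds for PRL with STP7 (437 bases) and for AT3G27360 with SDH2-1 on the same strand (328 bases).

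FSD3 (AT5G23310, chromosome 5, 7850444 to 7852534, plus strand), an iron superoxide dismutase of the plastid nucleoid that removes superoxide, had 65.3, 85.5 and 91.1 TPM before and 35.7, 40.3 and 44.1 TPM after culture at 9 days. Its level at 15 days was 21.7, 3.57 and 20.01 TPM before and 37.2, 31.9 and 29.1 TPM after. The low value is replicate 2, and without it the 15-day ratio misses the limit. AT2G27402 (chromosome 2, 11722770 to 11724400, plus strand), annotated as a plastid transcriptionally active protein, had 229.7, 273 and 257 TPM and then 111, 122 and 88.6 TPM at 9 days. At 15 days it rose from 4.4, 4.98 and 7.05 to 18.1, 38.04 and 40.3 TPM but reached only 12.7% of the uncultured 9-day mean. In a list of chaperonins and iron superoxide dismutases, not all of the plastid, added after the members were seen, 3 of the 7 genes at 5 TPM or more that are not members were lower at 9 and higher at 15 days.

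Cell surface and wall genes numbered 7, and CER1 (AT1G02205, chromosome 1, 418416 to 422579, plus strand), which makes the alkanes of cuticular wax, changed most. It had 15.7, 18.6 and 14.1 TPM in uncultured 9-day leaves and 0.4, 1.92 and 11.6 TPM after culture, where replicate 3 lay close to the uncultured libraries. Uncultured 15-day leaves had 0.2, 0.03 and 0.04 TPM, or almost none, and cultured ones 19.3, 26.1 and 5.58 TPM. The 15-day ratio of means was 189-fold, the highest of the group, and the cultured level differed from that of uncultured 9-day leaves by less than its spread, 17.01 ± 10.5 against 16.1 ± 2.25 TPM. The cuticle and lipid transfer list held no other member: 14 of its other 54 genes at 5 TPM or more were lower at 9 and higher at 15 days (19 on scaled counts).

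HTH (AT1G72970, chromosome 1, 27452748 to 27455964, plus strand), HOTHEAD, an oxidoreductase that keeps the epidermis of neighbouring organs from fusing, had 60.2, 73.7 and 126 TPM before and 35.5, 37.8 and 55.4 TPM after culture at 9 days. In 15-day leaves it went from 3.27, 3.22 and 2.92 to 5.42, 7.8 and 8 TPM, only 8.18% of the uncultured 9-day mean. The difference between ages before culture, 27.6-fold, was far wider than that between cultured and uncultured leaves at either age. It was also wide in AT1G67750 (chromosome 1, 25401514 to 25403595, plus strand), a pectate lyase, which went from 19.6 ± 7.56 to 8.19 ± 0.778 TPM at 9 days and from 0.437 ± 0.337 to 2.06 ± 0.895 at 15 days. sks4 (AT4G22010, chromosome 4, 11663186 to 11666716, plus strand), related to multicopper oxidases of the wall, had 35.6, 24.9 and 33.9 TPM and then 12.9, 11.1 and 14.5 TPM at 9 days, and 0.89, 3.89 and 0.89 TPM and then 5.91, 4.68 and 6.99 TPM at 15 days, where replicate 2 before culture was close to the cultured libraries.

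PIP2;8 (AT2G16850, chromosome 2, 7301334 to 7303509, plus strand), a plasma membrane aquaporin, was among the most even members, with 24.2, 23.2 and 23.4 TPM before and 12.5, 10.2 and 10.03 TPM after culture at 9 days. Its level at 15 days went from 2.21, 1.53 and 1.7 to 5.85, 7.85 and 6.83 TPM. The nearest copy of PIP2;8, PIP3, is 83.9% identical over 57.7% of the transcript, so part of the reads may be shared. PIP3 had mean levels of 610 and 198 TPM at 9 days and 631 and 103 TPM at 15 days, lower after culture at both ages. EXPA15 (AT2G03090, chromosome 2, 916806 to 918671, minus strand), a wall-loosening expansin, spread widely, with 4.52, 13.3 and 20.3 TPM and then 4.59, 3.62 and 7.69 TPM at 9 days. The groups overlapped there. At 15 days it had 0.41, 0.05 and 0.53 TPM before and 2.72, 1.32 and 2.57 TPM after culture. IRX12 (AT2G38080, chromosome 2, 15934244 to 15937616, plus strand), the laccase LAC4 that polymerises lignin in vessels, had 5.28 ± 2.42 and 1.94 ± 0.831 TPM at 9 days and 0.8 ± 0.426 and 2.59 ± 0.931 TPM at 15 days.

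The 3 defence-linked members include the steepest fall. AT5G03350 (chromosome 5, 815610 to 816670, minus strand), a legume lectin family protein, had 154, 218 and 190.1 TPM before and 50.8, 16.7 and 18.4 TPM after culture at 9 days, 6.55-fold lower. In 15-day leaves it went from 22.5, 10.7 and 23.5 to 127, 110.0 and 276 TPM. NIMIN1 (AT1G02450, chromosome 1, 497917 to 498539, minus strand), which binds the salicylic acid coactivator NPR1, had 7.42, 7.52 and 6.21 TPM and then 2.73, 1.91 and 1.58 TPM at 9 days. It rose from 2.02, 1.36 and 1.81 to 12.2, 23.1 and 40.3 TPM at 15 days, a wide spread, and its cultured 15-day mean was 358% of the uncultured 9-day mean. AT5G23820 (chromosome 5, 8031165 to 8033149, plus strand), an MD-2-related lipid recognition protein known as ML3, had 136, 158 and 154 TPM and then 74.1, 68.5 and 77.9 TPM at 9 days, and 10.09, 4.64 and 11.2 TPM and then 96, 40.4 and 69.6 TPM at 15 days. All 3 genes were lowest in replicate 2 of uncultured 15-day leaves, and the groups did not overlap.

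**Figure D3:**
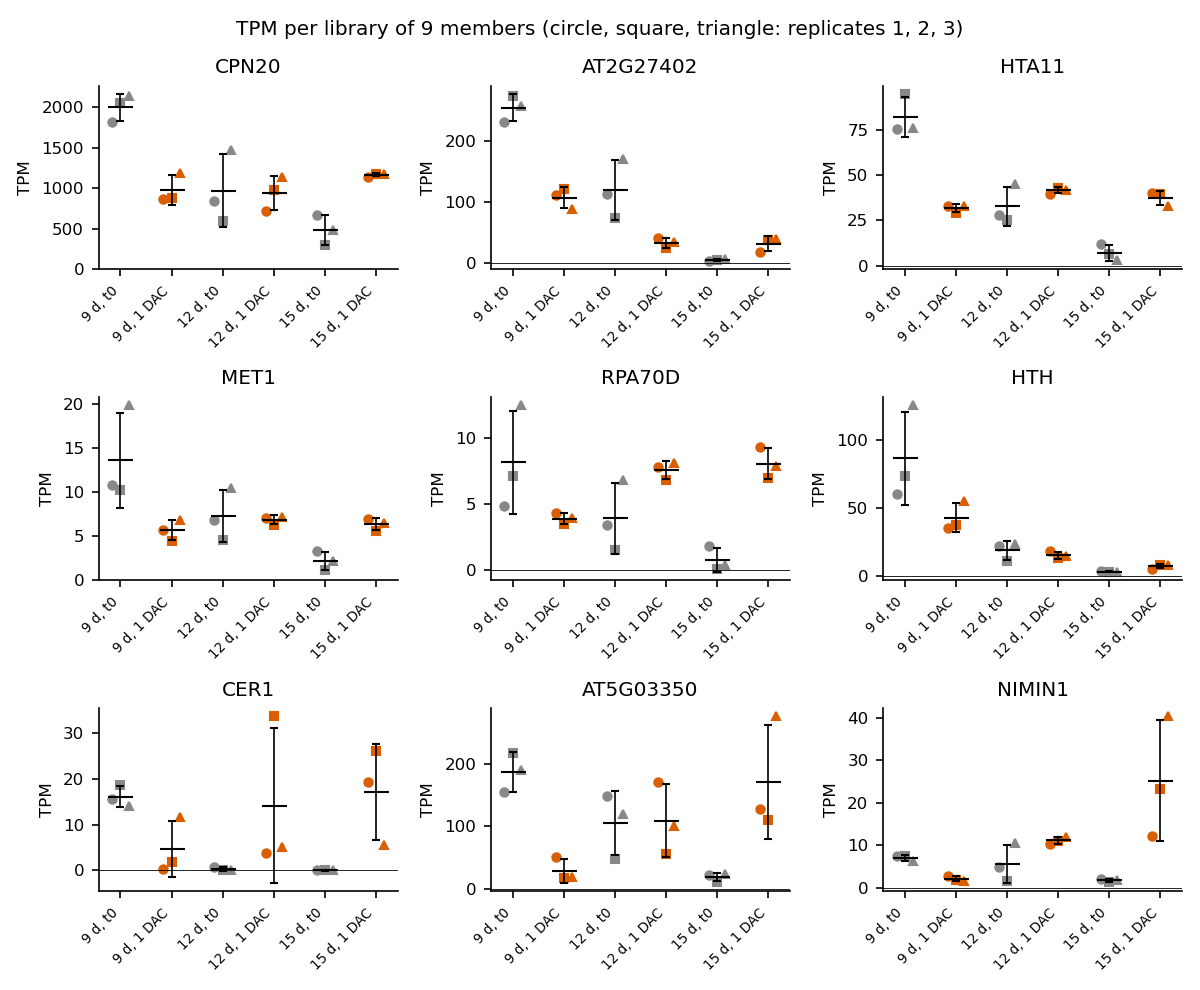
TPM in every library of 9 members (y axes, linear and including 0) by age and culture (x axes), grey before and orange after culture, with circles, squares and triangles for replicates 1, 2 and 3 and black bars for mean ± SD. Levels before culture fall with age in all 9, while cultured levels differ little between 9 and 15 days in HTA11 and MET1 and are wide apart in HTH and NIMIN1.

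Transcription factors numbered 3. AT4G16141 (chromosome 4, 9131532 to 9133161, minus strand), a GATA zinc finger factor, had 53.4, 41.4 and 54.1 TPM before and 22.1, 21.7 and 29.7 TPM after culture at 9 days, and 12.6, 11.01 and 9.35 TPM before and 32.4, 30.4 and 27.5 TPM after at 15 days. AT5G50915 (chromosome 5, 20710103 to 20712473, minus strand), a basic helix-loop-helix factor, went from 29.6 ± 10.2 to 9.99 ± 4.63 TPM and from 3.67 ± 1.62 to 13.5 ± 1.78 TPM. AT4G01580 (chromosome 4, 685670 to 686886, plus strand), a B3 factor, went from 25.7 ± 1.95 to 10.8 ± 1.45 TPM and from 1.29 ± 0.287 to 2.85 ± 0.167 TPM, 11.1% of the uncultured 9-day mean. Its neighbour in sequence, AT3G18960, is 87.5% identical over 88.4% of the transcript, so the split of reads between them is uncertain. AT3G18960 went from 27.5 to 11.6 TPM at 9 days but from 3.97 to 1.47 TPM at 15 days, opposite to AT4G01580.

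Another 6 members encode other proteins. AT1G56050 (chromosome 1, 20963686 to 20966341, plus strand), a GTP-binding protein, had 48.1, 59.1 and 65.8 TPM before and 26.5, 26.03 and 31.4 TPM after culture at 9 days, and 23.1, 7.87 and 17.3 TPM before and 31.8, 34.1 and 31.5 TPM after at 15 days. AT1G43605, of unknown function, rose most of them at 15 days, from 0.27, 0.03 and 0.23 to 2, 2.32 and 2.55 TPM. AT3G14740, a RING/FYVE/PHD zinc finger protein, went from 0.83 ± 0.827 to 6.77 ± 0.861 TPM at 15 days. Means before and after culture at 9 days were 5.11 and 2.53 TPM for AT1G43605 and 10.9 and 4.81 TPM for AT3G14740. AT3G57160, a cysteine-rich membrane protein, AT3G21300, an RNA methyltransferase, and AT2G44580, a zinc-binding protein, rose 3.35-, 2.40- and 3.36-fold at 15 days and fell 2.57-, 2.34- and 2.06-fold at 9 days.

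The remaining 8 members are short loci, of which 7 are annotated as small nucleolar RNAs (snoRNAs), which guide the modification of ribosomal RNA. Such RNAs mostly lack poly(A) tails. TPM divides by an effective length, which is small for a short transcript: a gene of 107 bases had 1.02 to 1.61 effective bases. Single counts thus gave high TPM, and the summed counts over the 3 uncultured 9-day libraries were 20 for AT5G07725, 4 for SNOR105 (AT1G29071), 6 for AT1G04223, 5 for AT1G09867 and 1 for AT1G53541, a short coding locus. At that depth no direction can be read. These 5 loci were not tested. AT1G06033 (36 counts) lies wholly inside the gene AT1G26880 on the same strand, so its reads cannot be told from its host's, and AT2G04955 had 33. AT5G02575 (chromosome 5, 5449240 to 5449529, plus strand), with 251 counts, is the exception, and had 17.4, 29.9 and 16.5 TPM before and 5.66, 10.7 and 13.1 TPM after culture at 9 days and 0.63, 0.81 and 0.72 TPM before and 15.9, 14.4 and 10.9 TPM after at 15 days. Asking for at least 30 summed counts, a limit added after the data were seen, leaves 36 members.

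**Figure D4:**
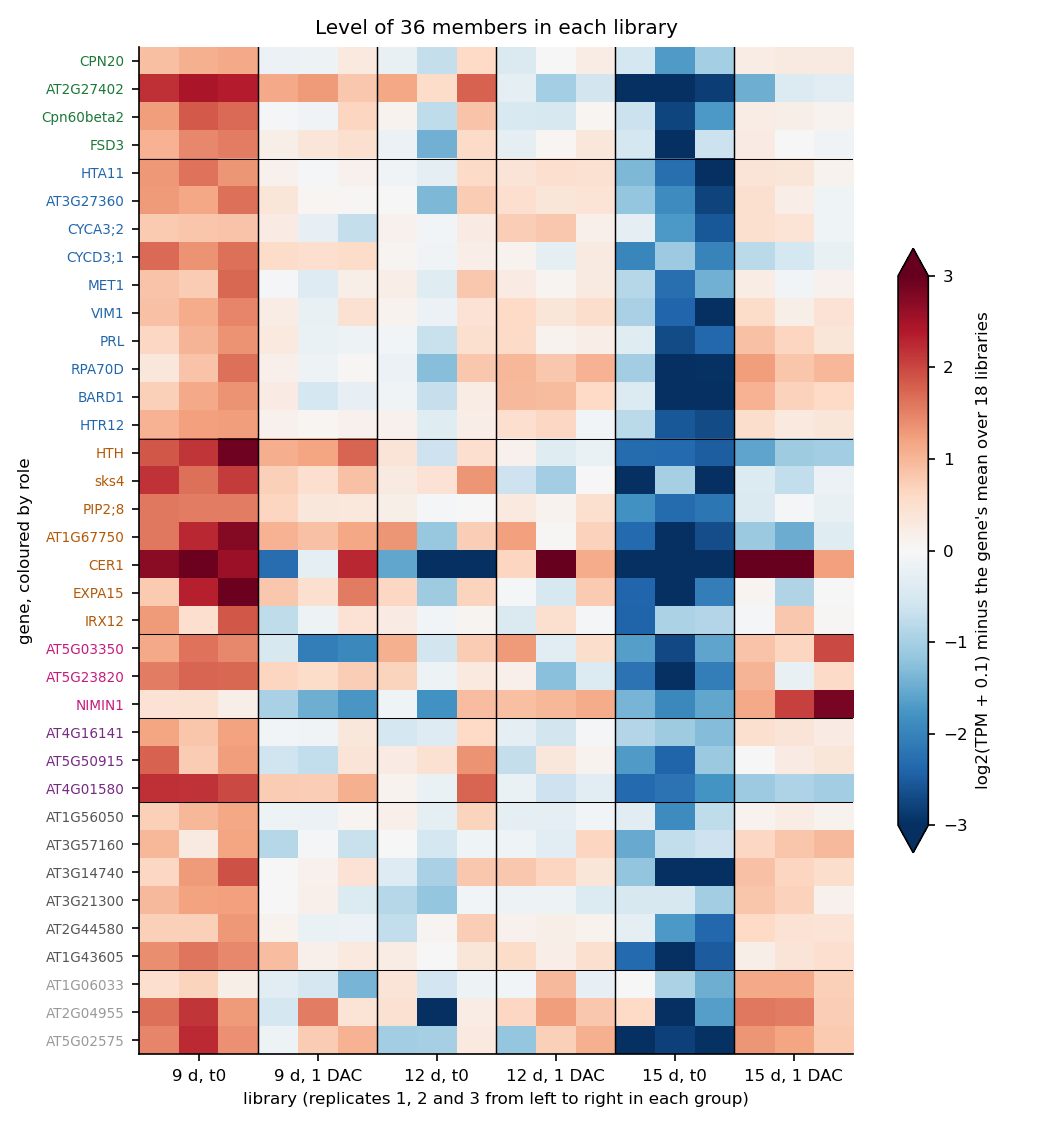
Level of the 36 members with enough counts (rows, coloured and grouped by role) in each library (columns, replicates 1 to 3 within each group), as log2(TPM + 0.1) minus the gene's mean over 18 libraries. In all 36 rows the 3 uncultured 9-day libraries lie above the 3 uncultured 15-day ones, as in 21.8% of the 13522 tested genes at 5 TPM or more, an order the rule favours, and uncultured 12-day replicate 2 is lowest of its group in 30 genes.

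Leaves of 12-day seedlings, which the rule did not use, gave the only test. Before culture the 12-day mean lay between those of 9 and 15 days in all 36 members tested. Of the 41 members 36 passed the filter on low counts. Of these, 6 were called (16.7%), where 19.7% of the 20952 genes tested were called (edgeR quasi-likelihood test, Benjamini-Hochberg adjusted p under 0.05). Higher after culture was 1 member, where 10.4% of all genes were, and lower were 5 (13.9%), where 9.33% of all genes were. The share called in either direction is near the background, so the 12-day calls give no result about the members as a group. The median log2 fold change was -0.13, that of all genes tested -0.03, and 21 of 36 lay within 0.5 of 0. An unadjusted p under 0.05 was reached by 9 (25%), where 32.3% of all genes reached it. Without replicate 2 of uncultured 12- and 15-day leaves 8 were lower, beside 11.7% of all genes. Without replicate 1 of every group 1 was lower, beside 3.28% of all genes, and without replicate 3 also 1, beside 4.67%.

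CER1 was the member that rose. Its levels at 12 days were 0.72, 0.09 and 0 TPM before and 3.7, 33.6 and 5.14 TPM after culture, without overlap, and its log2 fold change was 5.47 ± 1.39 (SE, n = 3 against 3; edgeR quasi-likelihood adjusted p = 0.012). Replicate 2 held most of the rise, and without replicate 2 of every group the gene was no longer called (adjusted p = 0.207 with a log2 fold change of 3.36). AT2G27402 fell most, from 113, 73.3 and 171 to 41.02, 24.8 and 34.5 TPM, a log2 fold change of -2.18 ± 0.34 (SE, n = 3 against 3; edgeR quasi-likelihood adjusted p = 0.000446), and was called in all 11 alternative fits. sks4 fell from 9.55, 10.7 and 19.9 to 5.08, 3.76 and 7.81 TPM, -1.60 ± 0.50 (SE, n = 3 against 3; edgeR quasi-likelihood adjusted p = 0.0336). For AT4G01580 the levels were 6.29, 5.08 and 19.9 before and 5.1, 3.78 and 4.72 TPM after, -1.51 ± 0.38 (SE, n = 3 against 3; edgeR quasi-likelihood adjusted p = 0.0107), and uncultured replicate 3 stood far above the others. AT5G23820 went from 75.3, 42.6 and 57.6 to 51.9, 19.5 and 35.2 TPM, -1.06 ± 0.36 (SE, n = 3 against 3; edgeR quasi-likelihood adjusted p = 0.0483), and AT1G56050 from 32.9, 24.2 and 47.02 to 24.3, 24.1 and 27.8 TPM, -0.77 ± 0.25 (SE, n = 3 against 3; edgeR quasi-likelihood adjusted p = 0.0436). In the last 3 genes the TPM groups overlapped. Leaving out replicate 1 or 3 of every group left sks4, AT4G01580, AT5G23820 and AT1G56050 with no call, at log2 fold changes of -1.73 and -1.52, -1.85 and -0.67, -1.21 and -1.04, and -0.77 and -0.55. AT5G23820 was also not called with no expression filter, with 12-day libraries only and without replicate 2. AT1G56050 was not called with no filter or in either fit of 12-day libraries only, and AT4G01580 in neither of those 12-day fits. CER1 was likewise not called in those 12-day fits.

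None of the 10 replication, histone and methylation members was called at 12 days, and 8 of their 10 log2 fold changes were above 0, from -0.40 ± 0.28 for MET1 to 0.70 ± 0.57 for BARD1, with a median of 0.06. Without replicate 2 of uncultured 12- and 15-day leaves the signs turned in HTA11, AT3G27360, VIM1, PRL and HTR12, and 3 of 10 were above 0, so no direction holds for the group. At an unadjusted p under 0.05 there were 0, and DESeq2 called 0. In TPM the libraries before and after culture did not overlap in RPA70D and BARD1, and they overlapped in the other genes of the group. RPA70D had 3.42, 1.54 and 6.81 before and 7.77, 6.82 and 8.08 TPM after, and BARD1 3.31, 2.19 and 4.23 and 7.09, 6.97 and 5.5. The share of all genes apart in this way at 12 days is not given, so nothing is read from it. TPM and scaled counts differ at 12 days, as in HTA11, with a ratio of mean TPM of 1.27 but a log2 fold change of 0.02. The median TPM ratio was 1.19 over genes at 5 TPM or more in uncultured 9-day leaves. The median log2 fold change of scaled counts was -0.03 over all 20952 genes tested, another set of genes. HTA11 had 28.1, 25.3 and 45.02 TPM before and 39.8, 43.05 and 41.97 TPM after. All 10 genes were lowest in uncultured replicate 2 and highest in replicate 3, and the share of all genes highest in replicate 3 is not given. The SD in TPM was larger before than after culture in the group, except in 3 genes. These were CYCA3;2 (1.445 before and 4.351 after), CYCD3;1 (0.571 and 1.037) and HTR12 (0.696 and 1.051). Replicate 2 was lowest in 30 of the 36 members and in 44.2% of all genes tested, and it has the highest early stress sum of its group, while replicate 3 has the next highest. The part of that sum in the result was not tested.

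Calls at 12 days differed between the wider lists, beside 10.4% higher and 9.33% lower among all genes. Of 24 origin and licensing genes tested 0 were called by edgeR, with 0 at an unadjusted p under 0.05 and 0 by DESeq2. Of 28 DNA synthesis genes 0 were called by edgeR, with 2 at an unadjusted p under 0.05 and 1 by DESeq2. Among 46 histone genes 1 was higher (2.17%), and among 27 A- and B-type cyclins and mitotic kinases 7 were higher (25.9%) and 0 lower, with 12 at an unadjusted p under 0.05 and 10 called by DESeq2. CYCB1;1, a mitotic cyclin, was one of these, with a log2 fold change of 1.04 ± 0.32 (edgeR adjusted p = 0.0315) and mean levels of 0.463 and 1.21 TPM before and after culture. Of 320 ribosomal protein genes 26 were higher (8.12%) and 34 lower (10.6%), and of 83 cuticle and lipid transfer genes 27 were higher (32.5%) and 8 lower (9.64%), CER1 among the former.

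HTH and Cpn60beta2, not called, had log2 fold changes of -0.63 ± 0.27 and -0.79 ± 0.40 at 12 days, with adjusted p-values of 0.116 and 0.188 by edgeR's quasi-likelihood test. Without replicate 2 of uncultured 12- and 15-day leaves both were called lower, at -0.90 and -1.09. AT5G50915 had -1.11 ± 0.39 and an adjusted p of 0.0589 by edgeR, and was called lower with DESeq2 (adjusted p = 0.0343), with a term for replicate 3 (0.0436) and without those libraries (0.0464). Over its 11 alternatives the adjusted p ran from 0.0343 to 0.299. The other plastid members CPN20 and FSD3 had -0.36 ± 0.27 and -0.13 ± 0.47. AT5G03350 had 149, 48.1 and 119 TPM before and 171, 55.8 and 101 TPM after culture, log2 fold change -0.28 ± 0.52, and NIMIN1 4.98, 1.5 and 10.5 and 10.3, 11.1 and 12.04 TPM, 0.66 ± 0.50. Replicates spread widely in both genes, and neither passed the test. On the same scaled counts the 36 members were 2-fold or more lower at 9 days, while 5 were under 2-fold at 15 days. Both limits were thus met by 31 on scaled counts. These are the libraries that chose the members, and no share of all genes is given, so nothing is read from these counts.

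**Figure D5:**
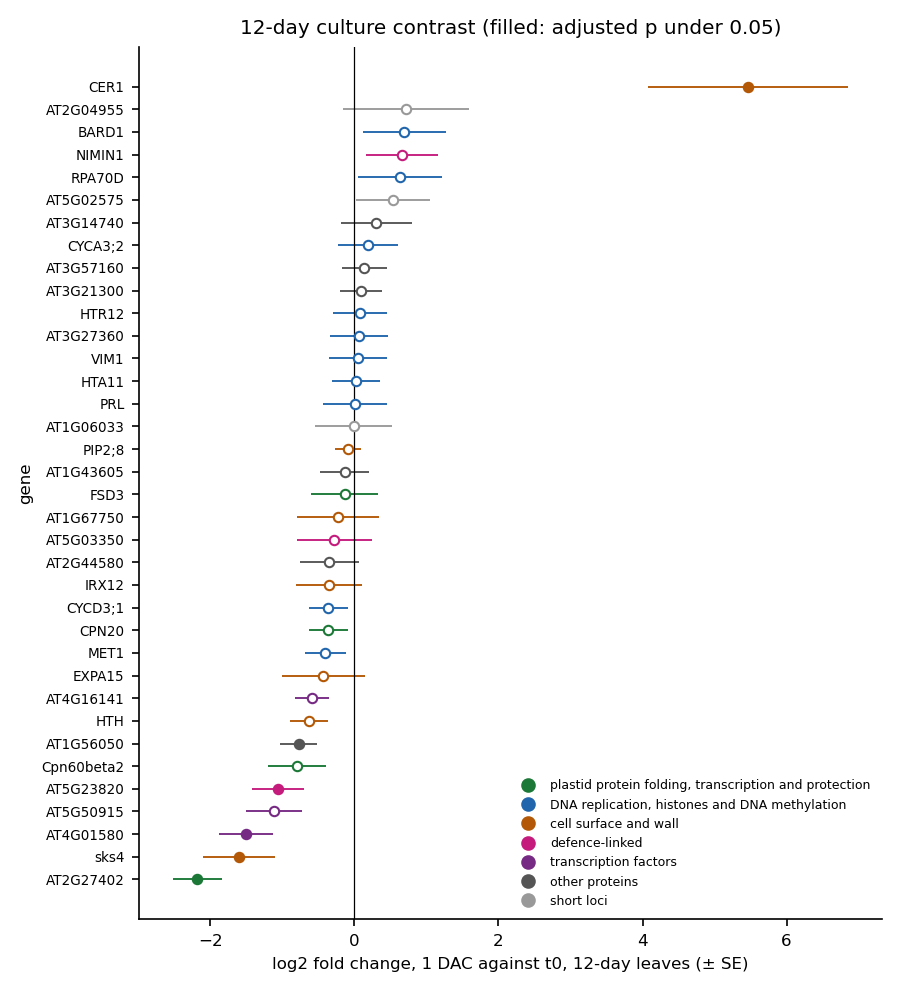
Log2 fold change after against before culture in 12-day leaves (x axis) of the 36 tested members (y axis), with bars for the SE and colours for role; filled points have an adjusted p under 0.05. CER1 is the filled point above 0, at 5.47, and AT2G27402 the lowest, at -2.18, while the replication group lies between -0.40 and 0.70.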

How the data were processed

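Per the submitters' processing notes, reads were processed with Trimmomatic, STAR 2.5.3 and RSEM 1.3.0 on the TAIR10 build; strand use and annotation version are not given in the sources used here. The authors deposited a gene table per library with expected counts, TPM and FPKM, per the file headers, for 18 libraries in 6 groups. TPM as deposited chose and describes the members. Deposited FPKM served as an alternative, on which the rule gave 34 genes, 33 of them among the 41. VIM1, HTH, FSD3, EXPA15, IRX12, AT1G67750, AT2G44580 and AT1G43605 dropped out, so these members depend on the unit. Expected counts were rounded to whole numbers and fitted over all 18 libraries with edgeR 4.0.16 (TMM scaling, filterByExpr with a minimum count of 10, 1 mean per group, quasi-likelihood test, Benjamini-Hochberg adjustment over 20952 genes, threshold 0.05; R 4.3.3), tested on simulated data. DESeq2 1.42.0 was an alternative. Totals of 29664089 to 51126114 expected counts set the precision. Names, positions and promoters come from RefSeq TAIR10.1, whose coding lengths matched the files within 0.5 base in 99.1% of 16746 single-transcript coding genes. Sequence likeness was searched with BLAST 2.17.0.

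Members and lists were chosen with earlier results of these data known. Roles of the members, the early stress list, the list of chaperonins and superoxide dismutases and the limit of 30 summed counts were added after the data were seen. Genes named are all members by role, the 23 comparison genes where they bear on replication or division, genes at the limits of the rule, and near-identical copies or hosts of members. The alternatives are other scalings, filters, replicate terms, left-out libraries and limits of the rule.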

Additional observations from a re-analysis of the deposited data

How the results depend on the processing

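The 12-day result was 1 member higher, 5 lower and a median log2 fold change of -0.13. RLE scaling, DESeq2 (6 lower), a term for replicate 3 (6 lower) and the replicate block over all libraries kept those counts within 1.5 times. Members lower numbered 3 with no expression filter, 2 with 12-day libraries only, 3 with the replicate block and 12-day libraries only, and 8 without replicate 2 of uncultured 12- and 15-day leaves, where 6.39%, 6.44%, 5.53% and 11.7% of all genes were lower (9.33% in the reported fit); members higher numbered 0 with 12-day libraries only and 0 with the block there (2 and 1 at an unadjusted p under 0.05, edgeR), where 6.86% and 5.23% of all genes were higher. Leaving out replicates 1, 2 or 3 gave 0 to 1 higher, 1 to 4 lower (4.63% to 6.53% of all genes higher and 3.28% to 5.72% lower) and medians of -0.311 to -0.0503; choosing members without one gave 48 to 75 members, 2 to 3 higher, 4 to 9 lower and medians of -0.359 to -0.0551. A limit of 1.5-fold gave 207 members, 5 higher and 20 lower. One of 3-fold gave 6 members, 0 lower (0 at an unadjusted p under 0.05, edgeR) and a median of 0.664. A level of 1 TPM gave 3 higher. Members chosen without a replicate or at other limits were tested in the reported fit, where 10.4% of all genes were higher and 9.33% lower. How many of each choice passed the filter on low counts is not given, so nothing is read from their counts. The causes were not tested.

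Same-numbered 12-day libraries did not all deviate together (r = -0.154, 0.115 and 0.230), and other pairs ran from -0.295 to 0.203. Deviations from means of 3 libraries cannot decide whether the numbers pair samples. With the replicate block 5575 of 20952 genes were called at 12 days, beside 4135 without it. The members then gave 1 higher, 5 lower and a median of -0.0955, where 13.6% of all genes were higher and 13% lower.

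Of 391 values of single members, 34 changed sign, none called in either fit. With the replicate block HTA11 had -0.00838 and PRL -0.0154, and with a term for replicate 3 -0.0116 and -0.0236. FSD3 had 0.0276 with the replicate block on 12-day libraries. AT1G06033 had 0.00406 with RLE scaling and 0.0103 with DESeq2. Without replicate 2 of uncultured 12- and 15-day leaves HTA11 had -0.117, AT3G27360 -0.324, VIM1 -0.052, PRL -0.221, AT3G14740 -0.000308, AT3G21300 -0.108 and HTR12 -0.0411, while AT1G67750 had -0.667. Leaving out each replicate in turn gave these ranges: HTA11 -0.17 to 0.321, FSD3 -0.526 to 0.272, AT3G27360 -0.314 to 0.638, AT1G06033 -0.696 to 0.453, AT2G04955 -0.0401 to 1.12, CYCA3;2 -0.0132 to 0.456, AT1G67750 -0.419 to 0.00593, AT3G57160 -0.0535 to 0.289, VIM1 -0.00739 to 0.195, PRL -0.164 to 0.403, AT3G14740 -0.0384 to 1.1, AT3G21300 -0.178 to 0.567, HTR12 -0.188 to 0.381 and AT2G44580 -0.636 to 0.0897.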
